A study of Mus musculus with 6 samples.

Results

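The MHC class II genes described here are Cd74, H2-Aa, H2-Ab1, H2-Eb1, H2-DMa, H2-DMb1 and Ciita, which were 7 of the 31055 features counted in single cells of the mouse aortic root and ascending aorta. They were found by gene symbol and followed in cells outside the leukocytes, by cell class and in cells with Myh11, the smooth muscle myosin heavy chain. The genes were chosen by their UMI counts in these same cells, so their levels are given as a description and without a test.

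The cells came from 6 mice of the 129SVE strain, female per the study's methods, at 16 weeks of age, with 1 library per mouse. Per the labels, 4 mice were controls (CTL) with the genotype Tgfbr1+/+, and 2 of these also carried Wnt2CRE, a Cre recombinase that the design text gives as specific to cells of the cardiac neural crest, and EGFP-L10a, a conditional tracer allele. The other 2 were LDS mice, heterozygous for the M318R allele of Tgfbr1 (Tgfbr1M318R/+), a model of Loeys-Dietz syndrome, in which signalling by transforming growth factor beta is altered and the aortic root dilates. The tissue was digested with collagenase and elastase, and cells positive for DyeCycle Violet, which stains DNA, and negative for propidium iodide, which enters dead cells, were sorted. The counts separate the 6 libraries by a number at the end of each cell barcode, and no source used here ties these numbers to mice, so CTL and LDS were not compared, no p-values were computed, and values are given within each library.

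MHC class II molecules present peptides from endocytosed protein to CD4 T cells. The alpha and beta chains pair in the endoplasmic reticulum around the invariant chain, Cd74, H2-Aa with H2-Ab1 and H2-Eb1 with an alpha chain from H2-Ea. H2-Ea was not among the features, so whether H2-Eb1 had a partner in these mice cannot be read here. H2-DM, made of H2-DMa and H2-DMb1, later exchanges a remnant of the invariant chain for a peptide. Ciita is the coactivator that switches these genes on, and dendritic cells, B cells and macrophages use it all the time, whereas other cells, vascular cells among them, can be brought to do so by interferon gamma through the Jak kinases and Irf1. Ciita does not bind DNA itself but docks on factors that sit on conserved boxes in the promoters of class II genes: the RFX complex on the X1 box and NF-Y on the Y box.

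In GENCODE M21 for mm10, H2-DMa, H2-DMb1, H2-Ab1, H2-Aa and H2-Eb1 lay in the major histocompatibility complex on chromosome 17, H2-Aa from 34282744 to 34287823, H2-Ab1 from 34257689 to 34269419, H2-Eb1 from 34305867 to 34316674, H2-DMa from 34119541 to 34139101 and H2-DMb1 from 34153072 to 34160230. Ciita lay on chromosome 16 from 10480059 to 10528418. Genes on the opposite strand overlap H2-Eb1 (Gm20513), H2-DMa (Brd2) and Ciita (Dexi), and whether the counting used strand is not given in the sources used here. H2-DMb1 has a close copy, H2-DMb2, which took 9 UMIs (unique molecular identifiers, which count captured transcripts) in smooth muscle cells and 185 in leukocytes, so the split between the copies is uncertain.

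Promoters were matched in RefSeq for 4 of the 7 genes (GRCm38.p6, from 250 bases before to 50 bases after the start). The promoters of H2-Aa, H2-Eb1 and H2-DMb1 are printed as examples, picked with their matches known. H2-DMa, whose values also went with those of Cd74, has 2 promoters in the table, not printed, of which neither held the X1 box pattern searched here and 1 held a Y box, at -198. Capitals mark the Y box letters ATTGG, on either strand, and the X1 box pattern AACNGATG, also on either strand.
H2-Aa, chr17:34287774-34288073, minus strand: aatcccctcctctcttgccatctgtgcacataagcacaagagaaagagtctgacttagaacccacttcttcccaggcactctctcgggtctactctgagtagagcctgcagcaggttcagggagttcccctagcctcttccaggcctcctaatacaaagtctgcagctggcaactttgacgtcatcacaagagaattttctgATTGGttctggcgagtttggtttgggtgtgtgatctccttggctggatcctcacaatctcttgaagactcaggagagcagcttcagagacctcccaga
H2-Eb1, chr17:34305617-34305916, plus strand: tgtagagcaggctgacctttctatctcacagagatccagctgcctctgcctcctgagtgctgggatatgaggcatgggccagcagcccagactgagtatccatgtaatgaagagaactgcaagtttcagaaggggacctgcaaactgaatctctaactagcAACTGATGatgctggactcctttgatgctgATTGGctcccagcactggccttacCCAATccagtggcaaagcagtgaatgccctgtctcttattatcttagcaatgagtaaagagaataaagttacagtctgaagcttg
H2-DMb1, chr17:34152941-34153240, plus strand: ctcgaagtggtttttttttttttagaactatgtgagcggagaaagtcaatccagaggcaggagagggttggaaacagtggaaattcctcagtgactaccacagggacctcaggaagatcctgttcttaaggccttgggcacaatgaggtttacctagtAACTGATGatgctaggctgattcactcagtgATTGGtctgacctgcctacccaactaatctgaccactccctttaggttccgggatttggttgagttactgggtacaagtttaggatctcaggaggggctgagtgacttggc
Counted from the start, the first base of the Y box was at -48 in H2-Aa, at -59 in H2-Eb1, with another on the other strand at -35, and at -61 in H2-DMb1. The X1 pattern began at -89 in H2-Eb1 and at -92 in H2-DMb1, as AACTGATG in both. The pattern letters were chosen with these promoters in view, and H2-Aa held no match to this pattern. Over the 32851 promoters of 300 bases in the same table, searched on both strands, 37.41% held ATTGG, 2.32% held the X1 pattern and 0.8797% (289 promoters) held both.

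After filtering, 24972 of 30716 barcodes remained, from 1863 to 6395 per library, with 18218282 to 38105145 UMIs per library and a median of 5572 to 9838 UMIs per cell. They fell into 13 clusters, built without the class II genes, and were named from marker genes as VSMC-like (vascular smooth muscle, 10400 cells in clusters 1, 3, 5 and 7), fibroblast-like (13518), endothelial-like (507) and leukocyte-like (547, led by C1qb, Lyz2 and C1qa in cluster 9 and by S100a9, S100a8 and Camp in cluster 11). All 7 VSMC markers (Acta2, Cnn1, Myh11, Myl9, Smtn, Tagln and Tpm2) passed in each of the 4 VSMC-like clusters, but Myh6, a cardiomyocyte marker, and Tnnt2 were among the 10 genes that led cluster 3. Libraries share 76 barcode sequences among the filtered cells (152 cells), of which 8 were among the 657 VSMC-like cells with Cd74 and H2-Ab1.

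Leukocyte-like cells held most of the class II RNA, but not all of it. Cd74, H2-Aa, H2-Ab1 and H2-Eb1 are called the surface genes below. Cd74 works mostly inside the cell, however, and no alpha chain of H2-Eb1 was counted. Of their 194587 UMIs, 76.6% were in leukocyte-like cells (2.19% of the cells), 12.0% in VSMC-like, 11.2% in fibroblast-like and 0.167% in endothelial-like cells. Summed over the cells of a class and divided by all UMIs of the class (CPM, UMIs per 1000000 UMIs), the surface genes had a median of 42507 CPM over the 6 libraries in leukocyte-like cells (35479 to 68874), 249.7 CPM in VSMC-like cells (65.3 to 589), 172 CPM in fibroblast-like cells (46.8 to 518) and 35.4 CPM in endothelial-like cells (22.8 to 207, 5 libraries with at least 20 such cells).

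In VSMC-like cells the surface genes stood at 179, 320.3, 589, 444, 155 and 65.3 CPM in libraries 1 to 6. Library 3 was the highest and library 6 the lowest, and every library was above the endothelial-like value of the same library where both could be computed (5 of 5). VSMC-like cells were above fibroblast-like cells in 4 of 6 libraries, so these neighbours in the order were not separated by their spread. Leukocyte-like cells were above VSMC-like cells in 6 of 6 libraries, by a median of 222 times (76.1 to 584).

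Among the VSMC-like clusters the level was uneven. It was highest in cluster 1, led by 2210407C18Rik, Mylk4 and Npnt, at 364 CPM (70.7 to 1076), and in cluster 3, led by Des, Tnnt2 and Myl3, at 290.5 CPM (63.0 to 496), which overlapped. Cluster 7, led by Rgs5, a regulator of G protein signalling found in mural cells, had 109.5 CPM (36.5 to 372). Cluster 5, led by Pln, Pgam2 and Sorbs2, had 38.5 CPM (21.0 to 111), lower than cluster 1, than cluster 3 and than cluster 7 in 6 of 6 libraries each.

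**Figure D1:**
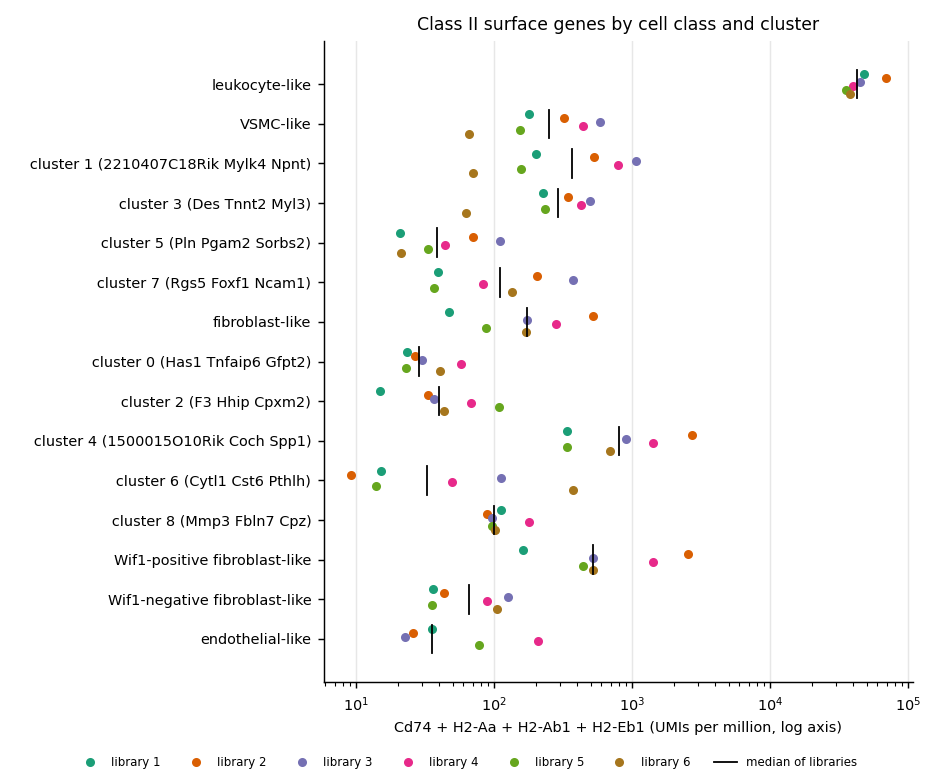
Summed level of Cd74, H2-Aa, H2-Ab1 and H2-Eb1 in CPM, on a log axis, by cell class and cluster. Each point is a library, drawn where the set held at least 20 cells of it, and the black line is the median. Leukocyte-like cells are the highest, from 35479 to 68874, VSMC-like cells from 65.3 to 589, and cluster 4 of the fibroblast-like cells from 338 to 2701.

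Among fibroblast-like cells the class II genes were concentrated in a single cluster. Cluster 4, led by 1500015O10Rik, Coch and Spp1, stood at 802 CPM (338 to 2701), against 28.4 CPM in cluster 0, 40.0 CPM in cluster 2, 32.5 CPM in cluster 6 and 99.4 CPM in cluster 8. Cells of this class with a UMI of Wif1, a secreted inhibitor of Wnt signalling and among the leading genes of cluster 4, numbered 1500. Their surface genes stood at 161, 2554, 519, 1422, 440.2 and 522 CPM in libraries 1 to 6, above the Wif1-negative cells (median 65.8 CPM, 35.6 to 126) of the same library in 6 of 6, by a median of 8.67 times (4.13 to 58.9).

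Cluster 4 also holds cells with Chad, a matrix protein of cartilage. Over all fibroblast-like clusters, Wif1-positive cells without Chad had 621 CPM (173 to 2744). Chad-positive cells without Wif1 had 33.4 CPM (14.7 to 62.4), lower in 6 of 6 libraries. These sets were not confined to cluster 4, so differences between clusters are part of this contrast.

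The invariant chain was the most abundant of the genes in every class. Cd74 had a median of 175 CPM in VSMC-like cells (39.3 to 452), 87.4 CPM in fibroblast-like cells (28.3 to 277), 321 CPM in the Wif1-positive fibroblast-like cells (83.0 to 1377), 16.1 CPM in endothelial-like cells and 30211 CPM in leukocyte-like cells (21369 to 40708). By library, Cd74 in VSMC-like cells was at 135, 214, 452, 330.1, 124 and 39.3 CPM, with 17344 UMIs in 1857 cells. Since only the 3' end of a transcript is counted, a UMI does not depend on transcript length, and the order between genes is one of captured transcripts.

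The chains followed at lower levels. The alpha chain H2-Aa had a median of 18.4 CPM in VSMC-like cells (5.74 to 50.0), and the beta chains H2-Ab1 and H2-Eb1 had 25.9 CPM (10.2 to 44.4) and 26.4 CPM (8.33 to 46.4). Within libraries there were 0.758 UMIs of H2-Aa for each of H2-Ab1 (median, 0.481 to 1.24) and 1.07 of H2-Eb1 (0.698 to 1.27). Neither pair thus kept 1 order in every library of this class. In leukocyte-like cells H2-Aa had 5647 CPM, H2-Eb1 5491 CPM and H2-Ab1 2879 CPM, and in the Wif1-positive cells the 3 chains had 83.2, 94.4 and 103 CPM.

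The chains stood in other proportions outside the leukocytes. In leukocyte-like cells there were 2.10 UMIs of H2-Aa for each of H2-Ab1 (median over libraries, 1.23 to 2.47), against 0.758 in VSMC-like cells (0.481 to 1.24), lower in 6 of 6 libraries, and 1.17 in fibroblast-like cells (0.797 to 1.55), also lower in 6 of 6. Cd74 made up 74.8% of the UMIs of the surface genes in VSMC-like cells (60.2 to 79.9%), above the leukocyte-like share of 69.1% (56.0 to 72.8%) in 6 of 6 libraries. In the Wif1-positive cells the Cd74 share was 55.8% (26.4 to 68.4%), below that of leukocyte-like cells in 6 of 6 libraries. Library 6 had the lowest Cd74 share in leukocyte-like cells (56.0%), in VSMC-like cells (60.2%), in the Wif1-positive cells (26.4%) and in the Wif1-negative cells (40.0%), and in leukocyte-like and in VSMC-like cells library 5 was the highest and library 2 the next to lowest, so the proportions also moved by library across these classes.

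The low Cd74 share was not particular to the Wif1-positive cells. In Wif1-negative fibroblast-like cells it was 62.9% (40.0 to 67.6%), above the leukocyte-like share in 0 of 6 libraries. VSMC-like and fibroblast-like cells, with or without Wif1, thus differed from the leukocyte-like cells of their library in opposite directions for Cd74. The part of the library in these proportions was not tested.

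**Figure D2:**
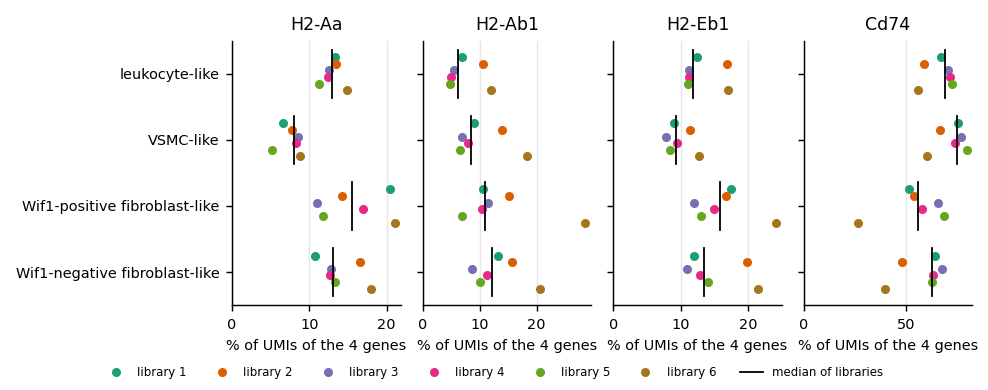
Share of each of 4 genes among their summed UMIs, in percent, for leukocyte-like cells, VSMC-like cells and fibroblast-like cells with and without Wif1. Each point is a library and the black line the median. H2-Ab1 took a median of 6.20% in leukocyte-like, 8.53% in VSMC-like and 11.0% in Wif1-positive cells, and H2-Aa 12.9%, 7.99% and 15.5%.

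The chains of H2-DM did not keep the leukocyte proportion in VSMC-like cells. H2-DMa had 2.61 CPM (1.21 to 5.16, 219 UMIs) and H2-DMb1 19.5 CPM (7.85 to 29.8, 1479 UMIs), which gave 6.57 UMIs of H2-DMb1 for each of H2-DMa (5.29 to 11.6). The same ratio was 1.52 in leukocyte-like cells (1.202 to 1.73) and 1.75 in the Wif1-positive fibroblast-like cells (1.34 to 4.05, 5 libraries with at least 10 UMIs of H2-DMa), lower than in VSMC-like cells in 6 of 6 and in 5 of 5 libraries.

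H2-DMb1 was also present in cells without Cd74 and H2-Ab1. In VSMC-like cells without any UMI of Cd74 and of H2-Ab1 it stood at 12.8, 18.4, 12.7, 13.1, 5.50 and 8.74 CPM in libraries 1 to 6, above fibroblast-like cluster 0 (median 2.95 CPM, 1.39 to 4.42) in 6 of 6 libraries and above endothelial-like cells (3 UMIs in 507 cells) in 5 of 5. Those comparison sets were among the lowest for H2-DMb1, and the level was not particular to smooth muscle. Fibroblast-like cells as a whole, with those holding Cd74 and H2-Ab1 included, had 12.5 CPM (5.41 to 19.8). Fibroblast-like cluster 8 had 10.9 CPM (8.20 to 18.1). The order of H2-DMb1 among the VSMC-like clusters differed from that of the surface genes: cluster 7 had 24.9 CPM (11.0 to 30.5), cluster 1 22.4 CPM and cluster 3 20.6 CPM, with overlapping ranges, and cluster 5 had 2.79 CPM (2.11 to 9.93), below cluster 7 in 6 of 6 libraries.

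Ciita, the coactivator, was near the limit of detection outside leukocytes. It had 56 UMIs in 52 of 10400 VSMC-like cells (11, 3, 22, 11, 8 and 1 UMIs in libraries 1 to 6, median 0.545 CPM), 35 UMIs in fibroblast-like cells and 152 UMIs in leukocyte-like cells (45.5 CPM, 10.4 to 71.0). In endothelial-like cells it had 0 UMIs in 507 cells, which allows a share of cells with a UMI of up to 0.725% by the exact (Clopper-Pearson) 95% interval. Of the 19 UMIs in Wif1-positive cells, all were in cells that also had Cd74.

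The class II UMIs sat in few cells. At least 1 UMI of a surface gene was found in 23.8% of VSMC-like cells, 16.2% of fibroblast-like, 14.8% of endothelial-like and 75.7% of leukocyte-like cells, where the median cell had 7200.5, 6112, 4612 and 5168 UMIs. After thinning each cell to 3000 UMIs, which left out 2037 shallower cells, the shares were 15.6%, 9.96%, 8.52% and 76.8%, and 6.41% in fibroblast-like cluster 0. The source of the UMIs in the endothelial-like cells and cluster 0 was not tested. At 10 or more UMIs the classes parted further: 452 VSMC-like cells (4.35%), 231 Wif1-positive fibroblast-like cells (15.4%), 15 cells of cluster 0 (0.264%) and 4 endothelial-like cells (0.789%) reached that number.

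Cd74 and H2-Ab1 met in the same Myh11-positive cells more often than their separate shares gave. A Myh11 UMI was present in 11384 cells, among them 98.4% of VSMC-like cells, but also in 7.71% of fibroblast-like, 9.27% of endothelial-like and 10.8% of leukocyte-like cells, and the source of the UMIs in these other classes was not tested. Both genes were found in 5.21%, 12.5%, 10.7%, 7.70%, 2.99% and 2.89% of the Myh11-positive cells of libraries 1 to 6, 722 cells in all. The widest exact 95% interval, that of library 2, ran from 10.6% to 14.7%, and these intervals cover counting error alone. Within bins of cells of like depth, chance meeting gave fewer such cells, and the observed count was 4.53, 2.71, 3.24, 2.80, 6.25 and 2.98 times the expected count, above 1 in every library.

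Of the 722 cells, 648 (89.8%) were VSMC-like, 45 fibroblast-like, 27 leukocyte-like and 2 endothelial-like. Without the Myh11 limit, 657 of 10400 VSMC-like cells had both genes, a median of 6.35% per library (2.43 to 13.2%). The share was 8.21% in cluster 3, 7.34% in cluster 1, 3.72% in cluster 7 and 1.17% in cluster 5, and it was 17.4% in fibroblast-like cluster 4 (6.69 to 34.3%), 15.7% in the Wif1-positive cells and 0.840% in endothelial-like cells (4 cells).

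**Figure D3:**
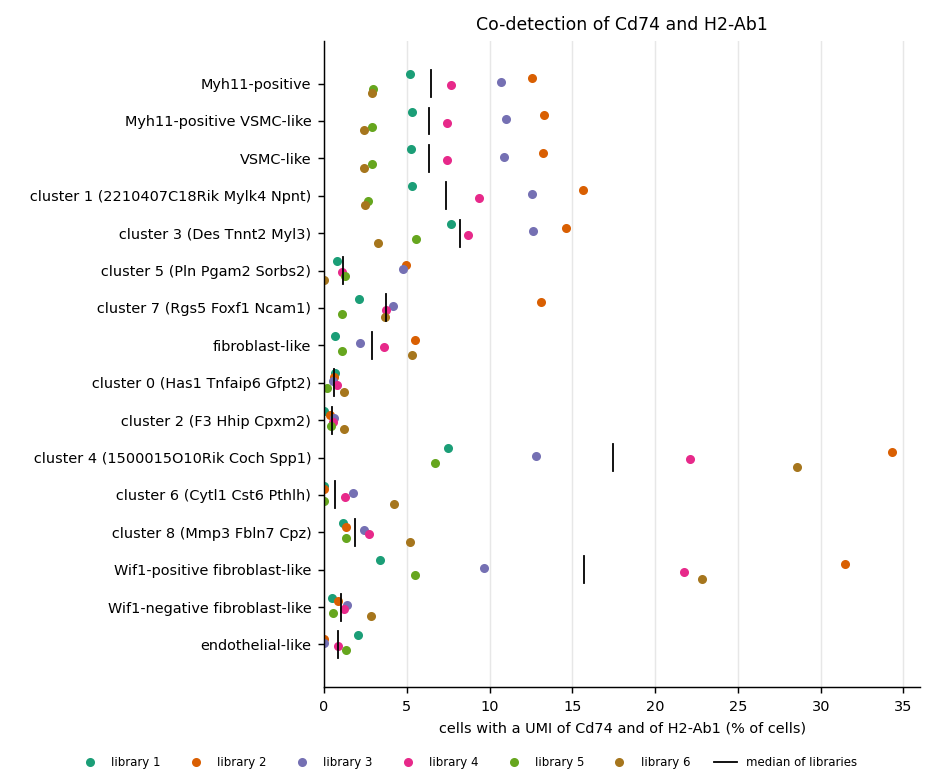
Share of cells, in percent, with at least 1 UMI of Cd74 and at least 1 of H2-Ab1, for Myh11-positive cells and for each class and cluster outside leukocytes. Each point is a library and the black line the median. Myh11-positive cells run from 2.89 to 12.5%, cluster 4 from 6.69 to 34.3% and cluster 0 from 0.177 to 1.22%.

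Other pairs of class II genes also met above expectation in VSMC-like cells, to differing extents. Cd74 and H2-Ab1 were together in 657 cells against 199 expected (3.30 times). H2-Aa and H2-Ab1 were together in 407 cells against 82.4 expected, and Cd74 and H2-Eb1 in 600 against 187. The excess was smaller for the others, since Cd74 met H2-DMb1 in 468 cells against 246 expected (1.90 times), H2-DMa in 97 against 39.5 (2.46 times) and Ciita in 25 against 11.3 (2.22 times, above expectation in 5 of 6 libraries). Pairs of Cd74 with genes of leukocytes lay on both sides of the expected count. Cd74 met Tyrobp, an adaptor of myeloid receptors, in 6 cells against 12.1 expected and Lyz2, lysozyme, in 25 against 29.4, while it met Fcer1g, a signalling chain of Fc receptors, in 18 against 13.95 (above expectation in 2 of 6 libraries) and C1qa, a complement chain of macrophages, in 16 against 11.98 (in 4 of 6). The leukocyte genes met each other, but in few cells. Tyrobp and Fcer1g were together in 4 VSMC-like cells against 0.567 expected (7.05 times, above expectation in 4 of 6 libraries). C1qa and C1qb were together in 4 against 0.599 (6.68 times, in 2 of 6). Both multiples were larger than that of Cd74 and H2-Ab1.

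The 648 Myh11-positive VSMC-like cells with both genes were set beside the 8137 that had neither, called double-negative. A UMI of any of 13 genes used here as leukocyte-only (such as Ptprc, Tyrobp and Csf1r) was in 44 of the 648 (6.79%) and in 449 of the 8137 (5.52%), Tyrobp in 1 and 56 cells, and Ptprc, the common leukocyte antigen CD45, in 2 and 5. Genes of B cells had 1 UMI in the 648 cells, genes of T cells 1 and genes of dendritic cells 3. The 13 genes summed to 13.7 CPM in the co-positive and 8.74 CPM in the double-negative cells, against 18095 CPM in leukocyte-like cells. Most of the 13 genes also served as markers that named the leukocyte-like class. Low values in VSMC-like cells thus follow in part from how the classes were made. Among all Myh11-positive cells, 75 of 722 with both genes (10.4%) and 554 of 9082 with neither (6.10%) held such a UMI. Tyrobp was in 28 and 74 of these cells, and Ptprc in 23 and 16.

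Doublets, barcodes that hold a pair of cells, were scored with scrublet. Of the 648 co-positive cells 4.32% were among the 5% with the highest scores of their library, and of the 8137 double-negative cells 3.96%. Among all Myh11-positive cells these shares were 7.34% and 6.06%. The 648 co-positive cells were deeper than the 8137, with a median of 8355.5 against 7115 UMIs, had 3.83% against 4.04% of mitochondrial UMIs, and had Myh11 at 2111 against 2510.5 CPM. They held a median of 13 UMIs of the surface genes (quartiles 5.75 and 34, highest 379). VSMC-like cells with both genes carried 81.8% of the surface gene UMIs of the class, and 76.2% of VSMC-like cells carried none.

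Against leukocyte-only UMIs, VSMC-like cells and cluster 4 had more class II than the leukocytes themselves. Leukocyte-like cells had 2.55 UMIs of the surface genes for each leukocyte-only UMI (1.93 to 2.86), and VSMC-like cells had 38.6, 59.6, 49.9, 28.4, 25.04 and 4.23 in libraries 1 to 6. Expressed as a log2 ratio to the leukocyte-like value of the same library, the median was 3.70 in VSMC-like cells (1.13 to 4.40), above 0 in 6 of 6 libraries and lowest in library 6. It was 3.85 in cluster 4 (3.06 to 5.92) and 3.87 in the Wif1-positive cells (1.53 to 6.01). Among the other fibroblast-like cells it was -0.12 in cluster 0, 0.04 in cluster 2 and -0.24 in cluster 6, each with libraries on both sides of 0, but 1.13 in cluster 8 (0.61 to 2.06), above 0 in 6 of 6 libraries, and it was 0.63 in all Wif1-negative cells (-0.12 to 1.73). In endothelial-like cells it was -0.18 (-2.92 to 1.77, 5 libraries). The VSMC-like clusters differed, with 4.43 in cluster 3, 3.92 in cluster 1, 1.79 in cluster 7 (-0.47 to 4.73) and 0.71 in cluster 5 (-0.25 to 2.59).

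Leukocyte-only genes themselves had 8.98 CPM in VSMC-like cells (4.64 to 15.7), lower than the 14.97 CPM of fibroblast-like cells in 6 of 6 libraries and than the 17.7 CPM of endothelial-like cells in 5 of 5. In the 1500 Wif1-positive cells they had 16.8 CPM (13.97 to 19.5), and Ptprc had 0 UMIs. That level is pooled over Wif1-positive cells with and without class II UMIs. It therefore does not show whether leukocyte-only UMIs were more frequent in the Wif1-positive cells that held Cd74 and H2-Ab1. In the leukocyte-like cells the ratio differed by cluster, 2.20 in cluster 9 and 8.04 in cluster 11 (0.928 to 9.43, 3 libraries), so a comparison with the leukocyte-like mean depends on which leukocytes a cell's RNA could come from, which was not tested.

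**Figure D4:**
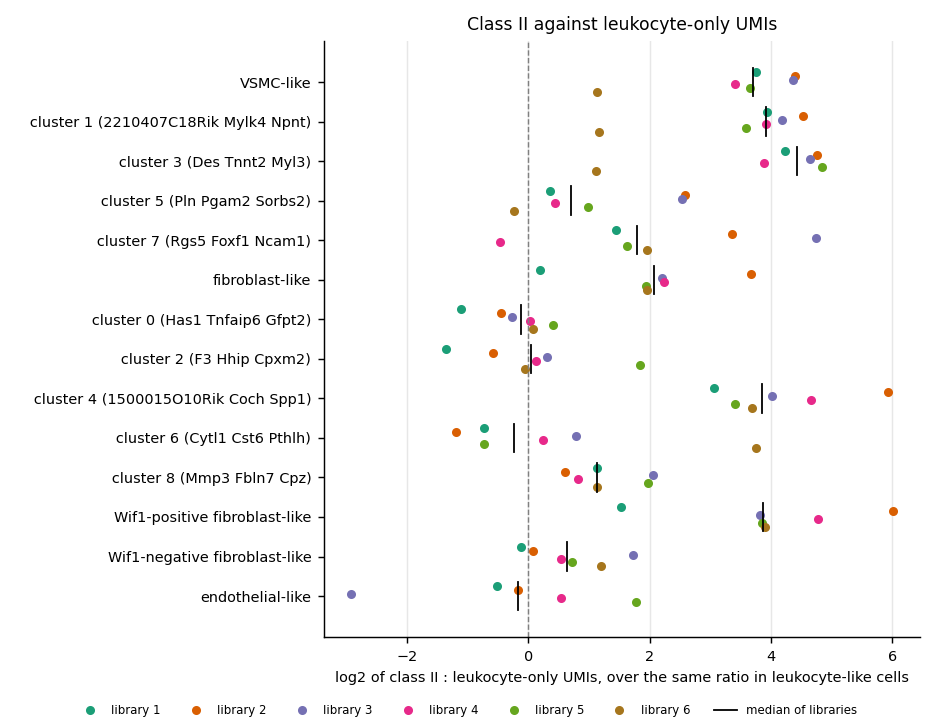
UMIs of the 4 surface genes over UMIs of 13 leukocyte-only genes, as a log2 ratio to the leukocyte-like cells of the same library, by class and cluster. Each point is a library, the black line the median and the dashed line 0, the proportion of leukocytes. VSMC-like cells lie from 1.13 to 4.40 and cluster 0 from -1.11 to 0.41.

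H2-Aa, H2-Eb1, H2-DMa and H2-DMb1 were higher in the co-positive than in the double-negative Myh11-positive VSMC-like cells. The log2 ratio of co-positive over double-negative cells, given here as the median over the 6 libraries, was 6.14 for H2-Aa (5.65 to 6.81; 162 against 2.30 CPM), 5.87 for H2-Eb1 (5.49 to 6.69; 233 against 3.80 CPM) and 2.56 for H2-DMb1 (1.94 to 3.23; 69.8 against 12.9 CPM), higher in 6 of 6 libraries each. H2-DMa, below the limit of 10 CPM set for this comparison, had 3.21 (2.59 to 4.61; 101 and 74 UMIs), higher in 6 of 6. For Ciita, also below the limit, the ratio was 1.76 with 19 and 25 UMIs and higher in 4 of 6 libraries, and in cells thinned to 3000 UMIs it was 0 (higher in 2 of 5), so no difference can be read for it. Past a log2 ratio of 1 and higher in every library were 0.273% of the 7686 genes with at least 10 CPM (21 genes), Cd74 and H2-Ab1, which chose the cells, included.

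The limit between the sets was the presence of a UMI, and cells with only Cd74 or only H2-Ab1 were in neither set. H2-DMb1 had the smallest ratio of the 3 members over the limit that did not choose the cells, and the highest level among them in the double-negative cells, 12.9 CPM beside 2.30 CPM of H2-Aa.

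Among all Myh11-positive cells, the set planned for this comparison, the ratios were 7.48 for H2-Aa, 7.23 for H2-Eb1, 4.90 for H2-DMa, 3.14 for H2-DMb1 and 2.48 for Ciita (29 and 26 UMIs). The genes with the largest ratios after Cd74, H2-Ab1, H2-Aa and H2-Eb1 were C1qa (6.19), C1qb (6.005), Ccl4 (5.64), Lyz2 (5.09) and Cxcl2 (4.42), then H2-DMb1. In this set 0.344% of the 7839 genes (27) passed 1 and 0.651% (51) passed -1 in every library. The 27 leukocyte-like cells were part of it, and the leukocyte-only genes summed to 634 CPM in its co-positive cells against 17.7 CPM in the double-negative ones. Among the VSMC-like cells alone C1qa had 0.637 and 0.670 CPM, and so the values that follow are those of the VSMC-like cells, a choice made after seeing the data.

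**Figure D5:**
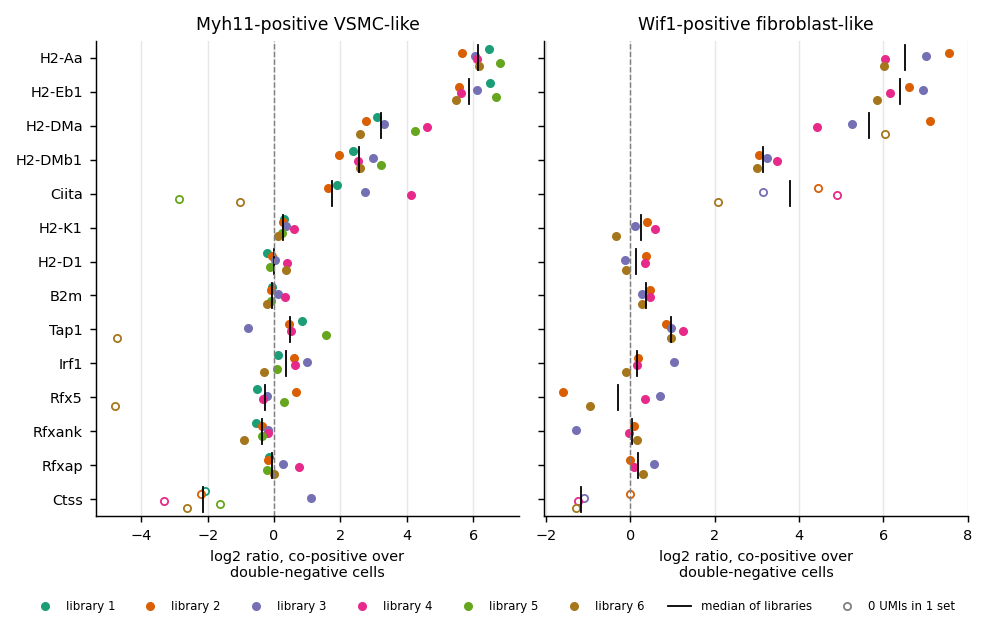
Log2 ratio of co-positive over double-negative cells for class II genes and genes of related lists, in Myh11-positive VSMC-like cells (left, 6 libraries) and Wif1-positive fibroblast-like cells (right, 4 libraries). Each point is a library, hollow where 1 of the sets had 0 UMIs so that the ratio is set by the prior, and the black line is the median. H2-Aa and H2-Eb1 lie between 5.49 and 7.55 in both panels, while the medians of H2-K1, H2-D1 and B2m on the left lie between -0.07 and 0.28.

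Outside the class II genes, the largest ratios in Myh11-positive VSMC-like cells were those of Frzb (1.77, 0.44 to 2.22), a secreted Wnt antagonist, Tnnt2 (1.76), cardiac troponin T, Vcam1 (1.74, 1.43 to 2.37), an adhesion molecule for leukocytes, Atp1b1 (1.60), a sodium pump subunit, Cxcl12 (1.53), a chemokine, Cp (1.45), ceruloplasmin, and Itih4 (1.38), each higher in 6 of 6 libraries. Lower in 6 of 6 were Bdh1 (-1.93), an enzyme of ketone bodies, P3h2 (-1.81), a collagen hydroxylase, Igfbp2 (-1.57), a binder of insulin-like growth factors, and Rgs5 (-1.36). In the other direction, 0.286% of the 7686 genes (22 genes) passed -1 in every library. The names were picked after the values were known.

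Since Tnnt2 leads cluster 3 and Rgs5 cluster 7, the ratios were repeated within clusters 1 and 3, in the 5 libraries with at least 20 cells of each kind. H2-Aa had 6.70 in cluster 1 and 5.83 in cluster 3, H2-Eb1 6.23 and 5.94, H2-DMa 3.66 and 3.83, and H2-DMb1 2.61 and 2.31. Frzb had 1.42 and 1.31, Atp1b1 1.78 and 1.26, Vcam1 2.08 and 1.64, Cxcl12 1.62 and 1.53, Cp 1.43 and 1.01, and Itih4 1.40 and 1.24. Tnnt2 had 1.51 in cluster 1 (-1.51 to 2.52, higher in 4 of 5) and 2.04 in cluster 3 (5 of 5). Of the lower genes, Bdh1 had -0.84 and -1.94 and P3h2 -2.19 and -1.57, lower in 5 of 5 each, Igfbp2 -1.31 (4 of 5) and -1.41, and Rgs5 -0.37 (-1.03 to 0.95, lower in 4 of 5) and -1.18 (5 of 5). Past 1 in every library were 0.281% of the 7821 genes at 10 CPM in cluster 1 (22 genes) and 0.44% of the 7498 in cluster 3 (33), and past -1 were 0.46% (36) and 0.387% (29). Clusters 5 and 7 had too few co-positive cells.

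Marker genes of other cells moved with the co-positive cells. The fibroblast genes Lum and Dcn, small proteoglycans of the matrix, had 524 against 129.9 CPM (log2 ratio 1.97, -0.67 to 3.29) and 699.5 against 272 CPM (1.09), higher in 5 of 6 libraries. Over the 6 fibroblast markers with at least 10 CPM the median was 0.37, with Col1a1 (0.37) and Col3a1 (0.37) higher in 6 of 6, and over all genes it was -0.02. Of the 7 VSMC markers, 6 were lower in 6 of 6 libraries (median -0.19; Smtn in 5 of 6), Myh11 itself at -0.17. The part of fibroblast RNA in these results was not tested.

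The genes around MHC class II in its pathway moved little in VSMC-like cells. Of the 7 promoter factors, the 6 with at least 10 CPM had a median of -0.08, with Rfxank at -0.36 and lower in 6 of 6 libraries, Nfya at -0.53, Nfyb at -0.10, Rfxap at -0.07, Nfyc at -0.02 and Creb1 at 0.01, while Rfx5, below the limit, had -0.26 at 5.14 CPM. Interferon gamma signalling had 7 such genes with a median of 0.08: Ifngr1 (0.16) was higher and Jak2 (-0.43) lower in 6 of 6, and Irf1 had 0.35, Jak1 0.22, Ifngr2 0.08 and Socs1 0.07. Ifng itself, the ligand, had 0 UMIs in both sets. Higher in every library, whatever the size, were 4.51% of all genes, and lower 6.3%.

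Genes of peptide loading and turnover also had ratios near 0. The proteases Ctsl and Lgmn had 0.01 and 0.12, the ligase March8 had -0.01, and Ctss, the protease that trims the invariant chain in professional presenting cells, had 2 UMIs in the co-positive and 26 in the double-negative cells. March1 had 0 and 2 UMIs. Of the other class II genes, H2-DMb2 had 4 and 2 UMIs, H2-Ob 0 and 1, and H2-Oa and H2-Eb2 0 in both sets. The co-stimulatory genes, whose products T cells also need, had few UMIs: Cd80 had 1 and 12 UMIs, Cd86 2 and 3, Cd40 0 and 5, Icosl 4 and 30 and Pdcd1lg2 3 and 11. The sets held 648 and 8137 cells, so like counts are not like levels, and no ratio is read from counts this low.

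MHC class I, the peptide presenting system of all nucleated cells, had 8 of 15 genes over the limit and a median of 0.01. The largest were Psmb10 (0.52), an immunoproteasome subunit, H2-K1 (0.28, higher in 6 of 6; 156 against 122 CPM) and H2-T23 (0.08), and the smallest Tap2 (-0.10), a peptide transporter, and B2m (-0.07). Under the limit, Psmb9, another subunit, had 1.07 with 49 and 174 UMIs, higher in 6 of 6. Of the targets of interferon gamma, Gbp7 had 0.43 and Gbp2 0.11, the only 2 over the limit, and Iigp1, at 6.90 CPM, had 0.87 and was higher in 6 of 6. No target of type I interferon passed the limit. Ifit1 had 1.34 (45 and 167 UMIs, higher in 6 of 6), but within clusters it had 1.54 in cluster 1 (higher in 4 of 5) and -1.51 in cluster 3 (2 of 5; 8 and 84 UMIs), so its direction was not kept. Ifit2 had -0.61 (26 and 534 UMIs, lower in 6 of 6), and -1.47 and -0.93 in clusters 1 and 3.

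In the Wif1-positive fibroblast-like cells the class II genes again came together. Both Cd74 and H2-Ab1 were found in 3.37%, 31.4%, 9.67%, 21.8%, 5.51% and 22.8% of these cells in libraries 1 to 6, 264 of 1500 cells, and the observed count was above the expected in 6 of 6 libraries (264 against 131). Libraries 2, 4 and 6 were high, and each was above libraries 1, 3 and 5. The order of the libraries differed from that in VSMC-like cells, where libraries 2 and 3 were the highest and library 6 the lowest.

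In the 4 libraries with enough cells of each kind (2, 3, 4 and 6), the log2 ratio of co-positive over double-negative cells was 6.52 for H2-Aa (717 against 4.94 CPM), 6.38 for H2-Eb1 (672 against 8.90 CPM), 5.65 for H2-DMa (89.9 against 0.881 CPM) and 3.15 for H2-DMb1 (145 against 13.7 CPM), higher in 4 of 4. Ciita had 19 UMIs in the co-positive cells and 0 in the double-negative cells. Of 8177 genes at or above 10 CPM there, 1.9% (155) passed 1 in every library and 4.49% (367) passed -1. Every library meant 4 libraries here but 6 in VSMC-like cells, a limit that is harder to meet. The shares of these sets can therefore not be compared.

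Among the largest ratios were Clca3a2 (5.02), Nrgn (4.24), neurogranin, Cyp4b1 (3.86), Sele (3.43), the adhesion molecule E-selectin, and Car12 (3.38), a carbonic anhydrase, and lower were Spp1 (-6.85), osteopontin, Igfbp6 (-6.12) and Foxd1 (-5.76), while Hhip, which binds hedgehog ligands, had 0 UMIs in the co-positive and 420 in the double-negative cells. These, too, were picked with the values known.

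The co-positive and double-negative Wif1-positive cells sat in different clusters, however. Of the co-positive cells 94.7% (250) were in cluster 4, but only 46.4% of the double-negative cells (452), of which 32.4% were in cluster 0 and 12.6% in cluster 2, which Hhip helps to lead. The ratios were therefore repeated within cluster 4, a comparison added after seeing the data. There H2-Aa had 6.07, H2-Eb1 5.81, H2-DMa 5.27 and H2-DMb1 2.68, higher in 4 of 4 libraries.

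Within cluster 4, 1.01% of 8055 genes (81) passed 1 in every library and 2.04% (164) passed -1. Clca3a2 had 4.21, Nrgn 4.26, Cyp4b1 3.30 and Car12 2.79, higher in 4 of 4, and Sele 2.78, higher in 3 of 4. Spp1 had -7.39 and was lower in 4 of 4. Igfbp6 had -2.30 (-5.05 to 1.44, lower in 3 of 4), and Foxd1, with 1 and 11 UMIs, and Hhip, with 0 and 22 UMIs, were below 10 CPM.

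Of the MHC class I pathway, 12 of 15 genes passed the limit in the Wif1-positive cells, with a median of 0.40 beside 0.02 over all genes, and 6 were higher in 4 of 4 libraries. These included Psmb8 (1.29; 98.2 against 39.8 CPM), H2-T23 (1.10), Tap1 (0.97) and Psmb9 (0.92), and the smallest values were those of Tapbp (-0.08) and H2-T22 (0.05). Of the 6 interferon gamma targets over the limit, Iigp1 (1.98), Cxcl10 (1.38) and Gbp7 (1.14) were higher in 4 of 4, Irgm1 had 0.36 and Icam1 (-0.56) was lower in 4 of 4. Of the 5 type I targets over the limit, Isg15 had 1.41 and was higher in 4 of 4, Ifit3 had 0.88, Ifit1 0.69, Oasl2 0.62 and Irf7 0.44. Within cluster 4 Psmb8 had 1.63, H2-T23 1.47, Tap1 1.49, Psmb9 0.86, Iigp1 1.55, Cxcl10 1.30 and Gbp7 0.82, higher in 4 of 4, while Isg15 (1.02) was higher in 3 of 4 and Icam1 (-0.00298) lower in 2 of 4. In all Wif1-positive cells 13.7% of all genes were higher in every library, whatever the size, and 13.3% lower.

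Signalling genes again had values near 0, with Jak1 at 0.41 (higher in 4 of 4), Ifngr1 at -0.29 (lower in 4 of 4), Irf1 at 0.16, Ifngr2 at -0.38, Jak2 at 0.19 and Socs1 at -0.13, and 0 UMIs of Ifng.

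The protease Lgmn had 1.11 (773 against 356 CPM) and Ctsl -0.78 (994 against 1651 CPM), in 4 of 4 libraries each, and March8 had -0.02. Ctss had 0 and 3 UMIs, Icosl a ratio of -0.44, Cd40 0 and 13 UMIs, Cd80 1 and 15, Pdcd1lg2 0 and 1, and Cd86 0 in both sets. H2-Eb2, a further class II beta chain, had 7 and 0 UMIs, H2-DMb2 2 and 0 and H2-Ob 0 and 1. The promoter factors over the limit were Nfyb (0.23), Creb1 (0.22), Rfxap (0.18) and Nfyc (0.02), none of which kept 1 direction in 4 of 4 libraries, and under it Nfya had 0.09, Rfxank 0.03 and Rfx5 -0.30.

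By its pattern over the 23 sums of a class in a library, the gene most like the surface genes was H2-DMa (Pearson's r of log2(CPM + 1) = 0.974), followed by Rgs2, Cd72, C1qc, Slamf9 and C1qa, with Ciita next (0.960) and then Lacc1, Coro1a and Tspan33 (0.959). These points share libraries, and the leukocyte-like sums lie far from the rest. Over the 61 sums of a cluster in a library outside leukocyte-like cells, the closest genes were 1110008P14Rik (0.678), Stk17b (0.666), a kinase, and Wif1 (0.636).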

How the data were processed

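Single cells of the aortic root and ascending aorta of 6 mice were measured with 3' single-cell RNA sequencing (10x Genomics, v3 chemistry), with 1 library per mouse (4 CTL, 2 LDS). The authors aligned the reads to mm10 and deposited UMI counts per gene and barcode for all libraries in 1 matrix of 31055 features and 30716 barcodes. The submitters' processing notes name Cell Ranger 6, whereas the file header names Cell Ranger 4.0.0. The labels do not tie the numbers at the ends of the barcodes to mice, so libraries 1 to 6 are not the replicates of CTL or LDS, and no test between groups was made. The 7 genes, the gene lists and the comparisons were chosen with earlier results of these data known.

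Cells with over 1000 and under 5000 genes, over 1500 and under 25000 UMIs and under 20% mitochondrial UMIs were kept, as in the study's methods. Counts were normalised per library by SCTransform (sctransform 0.4.2), integrated by reciprocal principal components and clustered at a resolution of 0.25 in Seurat 5.3.0 (R 4.3.3), with 3000 variable features, class II genes removed from them, and 30 dimensions. Clusters were named from marker genes, which rebuilds the study's classes and need not equal them. Python 3.11.15, numpy 2.4.6, scipy 1.17.1, pandas 2.3.3, scanpy 1.11.5 and matplotlib 3.10.9 gave the rest. The scrublet step of scanpy called 0.0891 to 1.92% of the cells of a library doublets, under 0.5% in 2 libraries, so its scores were used instead and no cell was removed.

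Levels are UMIs per 1000000 UMIs of a set of cells in a library (CPM), for sets of at least 20 cells. The expected co-detection is the sum over 10 bins of cells by UMI count of the product of both shares. Co-positive cells (a UMI of Cd74 and of H2-Ab1) were compared with double-negative cells within each library by a log2 ratio of CPM with a prior of 0.5 UMIs, for genes with at least 10 CPM. Named besides the 7 genes were every gene of the lists for other class II genes, peptide loading, promoter factors, interferon gamma signalling and co-stimulation, the 3 largest and 2 smallest of the class I and interferon target lists, and the 10 genes with the largest ratio or closest pattern, apart from some items that are not reported here. Intervals are exact (Clopper-Pearson, 95%) and cover counting error only. The steps were tested on simulated data, with 4-fold changes for the log2 ratios. These data held no cell clusters, free RNA or doublets, so the test cannot speak to those.

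Gene positions are from GENCODE M21 (GRCm38) and promoters from RefSeq (GRCm38.p6). Alternatives were other class assignments, doublet and leukocyte UMI filters, thinning to 3000 UMIs, other limits for Myh11 and for detection, another prior and CPM limit, and each library left out in turn.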

Additional observations from a re-analysis of the deposited data

Results flagged for a closer look

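Of the 51 groups of 5 or 6 libraries that were looked at, 5 held 1 library far from the others, where chance flags about 1 in 20. Library 2 was the highest of 6 in leukocyte-like cells for H2-Eb1, at 11604 CPM beside a median of 5035 CPM in the other libraries, for H2-DMb1, at 855 CPM beside 512 CPM, and for the 4 surface genes together, at 68874 CPM beside 40208 CPM. Library 2 was also the highest for H2-Ab1 in the Wif1-positive fibroblast-like cells, at 388 CPM beside 59.1 CPM. Library 6 was the lowest for class II against leukocyte-only UMIs in VSMC-like cells, with a log2 ratio of 1.13 over its leukocyte-like cells beside a median of 3.76 in the others. Library 6 had the largest share of leukocyte-like cells, 6.39% of its cells, against 0.962 to 2.50% in the others, and the part of that share in its low ratio was not tested.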

How the results depend on the processing

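Values moved by less than 1 SD between libraries, or by less than 1.5 times for a count of genes, in 216 of the 250 alternatives computed over 18 results, and 34 moved by more. The 250 include each library left out in turn. A median over libraries can move only among its middle values in that case, so those alternatives say little about stability. Where the middle values lie far apart, the median still moved, as the ranges below show. The counts of genes need 1 direction in every library, and that limit is easier to meet with 1 library fewer. With the class II genes kept among the variable features, 99.6% of the VSMC-like and 99.4% of the fibroblast-like cells stayed in their class, and the median class II level was 249 CPM in VSMC-like cells and 178 CPM in fibroblast-like cells.

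Among Myh11-positive cells, the count of genes past a log2 ratio of 1 and higher in every library was 27. It was 10 with a minimum of 50 CPM, where fewer genes were tested, and 15 with cells holding a leukocyte-only UMI left out. The count past -1 and lower in every library was 51, against 9 at 50 CPM and 94 in cells thinned to 3000 UMIs. Other sets of cells, chosen after seeing the data, gave 22 lower genes in VSMC-like cells only, 29 in cluster 3, and 155 higher and 367 lower genes in Wif1-positive fibroblast-like cells, against 81 higher and 164 lower genes in the Wif1-positive cells of cluster 4. These other sets had from 4 to 6 libraries, and 1 direction is kept more easily in fewer libraries. Apart from the minimum of 50 CPM, the cause was not tested. The Ciita ratio of 2.48 was 0 in thinned cells, where it ranged from -2.62 to 4.17 and was higher in 2 of 5 libraries, and it was also 0 in thinned VSMC-like cells. With cells holding a leukocyte-only UMI left out, the ratios were 6.30 for H2-Aa, 6.08 for H2-Eb1, 3.46 for H2-DMa and 2.53 for H2-DMb1.

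Leaving out 1 library at a time gave class II levels of 40208 to 44806 CPM in leukocyte-like, 179 to 320.3 CPM in VSMC-like, 169.8 to 174 CPM in fibroblast-like, 519 to 522 CPM in Wif1-positive and 30.7 to 56.9 CPM in endothelial-like cells. The last was 56.9 CPM without library 2 or library 3, and 52.2 CPM without library 1, against 35.4 CPM with all libraries. The co-detection share ran from 5.21 to 7.70% and its observed over expected value from 2.98 to 3.24. The log2 class II to leukocyte-only ratio ran from 3.65 to 3.76 in VSMC-like, 1.95 to 2.21 in fibroblast-like, 3.84 to 3.89 in Wif1-positive and -0.35 to 0.18 in endothelial-like cells, where it was 0.18 without library 1 or 3, 0.01 without library 2 and -0.18 with all. Counts ran from 27 to 36 higher and from 54 to 64 lower genes, and ratios from 6.78 to 8.18 for H2-Aa, 6.71 to 7.76 for H2-Eb1, 4.69 to 5.11 for H2-DMa, 3.08 to 3.20 for H2-DMb1 and 1.93 to 3.02 for Ciita.

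No paired analysis was possible because the barcode suffixes carry no replicate numbers and are not tied to mice, so no test was made between groups. The ratios in clusters 5 and 7 alone were not run, since too few cells there held both Cd74 and H2-Ab1. Ciita, with 56 UMIs in VSMC-like cells, was near the limit of detection.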

Other observations

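In the Wif1-positive fibroblast-like cells, further genes had ratios of co-positive over double-negative cells past 1. Grin3a, a subunit of a glutamate receptor, had a log2 ratio of 2.70 (1.67 to 3.91), and Sez6l 2.53 (1.42 to 5.32), each higher in 4 of 4 libraries. Hpse, the enzyme that cleaves heparan sulfate, had 2.94 (1.39 to 3.45). The matrix genes Col3a1 and Col1a1 had -1.89 and -0.90, lower in 4 of 4, and 5 of the 7 fibroblast markers were lower in every library. These were picked with the values known. Within cluster 4 the ratios were 2.29 for Grin3a, 1.80 for Sez6l, 2.58 for Hpse, -1.26 for Col3a1 and -0.65 for Col1a1, in the same direction in 4 of 4 libraries.

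In fibroblast-like cluster 6, led by Cytl1, Cst6 and Pthlh, the surface genes stood at 372 CPM in library 6 and between 9.15 and 112 CPM in the others. Within the VSMC-like cells, Cd74 and Pecam1, an endothelial adhesion molecule, met in 283 cells against 239 expected, above the expected count in 6 of 6 libraries, and Pecam1 had a log2 ratio of 0.50 in the co-positive cells, higher in 5 of 6.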
